A study of Arabidopsis thaliana with 5 samples.

Results

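Calcium signals are read in plant cells by proteins that bind the ion through EF-hand or C2 domains, and by proteins that bind calmodulin once it carries calcium. CAMTA proteins, the calmodulin-binding transcription activators, belong to the second kind: they bind DNA and calmodulin and are known for roles in cold, wounding and defence responses in Arabidopsis thaliana. The 6 genes described here are CAMTA4 (AT1G67310) and CAMTA5 (AT4G16150), the calmodulin-like gene AT2G41090, the EF-hand gene AT4G27280, the C2-domain gene SRC2 (AT1G09070) and IQD22 (AT4G23060), whose product has the IQ domain that binds calmodulin. They were taken by name, as every probe set that names 1 of them. Each was named by 1 probe set, so 6 of the 8247 non-control probe sets are described, and 0 probe sets named a member together with another gene. AT2G41090, AT4G27280, SRC2 and IQD22 were picked with their differences on these arrays already known, so those differences are a description and were not tested.

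Whole plants of growth stage 1.04, grown at 18 degrees and 65% humidity with 16 h light and 8 h dark, were profiled on 5 Affymetrix arrays, 1 for each of 5 groups. CAMTA.1.2 and CAMTA.6.2 are T-DNA lines in the Col-0 accession made with the pROK2 vector, and CAMTA.6.2 is labelled as still segregating for its insertion. CAMTA.1 is a line in the WS accession, with no modification described in its labels. WS and Col-0 are the plants of the 2 accessions for which no line is named. The labels give neither the number of plants behind an array nor the state of the insertion in the CAMTA.1.2 and CAMTA.1 lines. With 1 array per group there is no spread between replicates, no test and no p-value for any value below, and precision is limited by having so few arrays. In whole plants, fewer cells of a type and less RNA per cell cannot be told apart.

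The source names disagree with these characteristics. They carry KO1 on the Col-0 array, KO2 on CAMTA.1.2, KO3 on CAMTA.1, WSC on CAMTA.6.2 and EX1 on WS, so every direction below rests on the characteristics. ECS1, a gene whose level differs between these accessions, had intensities of 4865 on CAMTA.1.2, 3545 on CAMTA.6.2 and 6832 on Col-0, and of 39.1 on CAMTA.1 and 97.3 on WS, which separates the arrays by their labelled accession. The line labels could not be checked in this way, because probe sets named only 2 of the 6 CAMTA family genes, CAMTA4 and CAMTA5. Between 59.3% and 60.7% of probe sets lay above the floor of 18.1 on each array, the floor being the intensity under which values were not ordered. The 4 green-tissue marker genes summed to 10570 on CAMTA.1.2, 12882 on CAMTA.6.2, 10834 on CAMTA.1, 7176 on WS and 9232 on Col-0, and the 3 root peroxidase genes to 136, 354, 399, 339 and 168 in that order. The green markers did not move as one: LHB1B2, a light-harvesting protein gene, was at 2502 on CAMTA.6.2 against 489 on Col-0 and at 1946 on CAMTA.1 against 398 on WS, while PRK, of carbon fixation, was at 784 against 1231 and at 869 against 1003 in the same pairs. Flower organ genes were not analysed here.

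The CAMTA genes gave little or no signal. CAMTA4 had scaled intensities of 9.76 on CAMTA.1.2, 14.9 on CAMTA.6.2, 14.9 on CAMTA.1, 16.2 on WS and 16.0 on Col-0, all under the floor, so its order over the arrays carries no information and no fold is given. CAMTA5 was at 19.5 on CAMTA.6.2, 20.4 on CAMTA.1, 19.5 on WS and 21.7 on Col-0, and at 15.5, under the floor, on CAMTA.1.2. Its highest value was 1.20 times the floor. Across the 4 comparisons CAMTA5 differed by at most 0.26 on the log2 scale, and that value, for CAMTA.1.2 against Col-0, is a bound set by the floor. A lower level of either CAMTA transcript on a line array was therefore not detectable at this signal, and neither was 2-fold higher in any of the 4 comparisons.

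**Figure D1:**
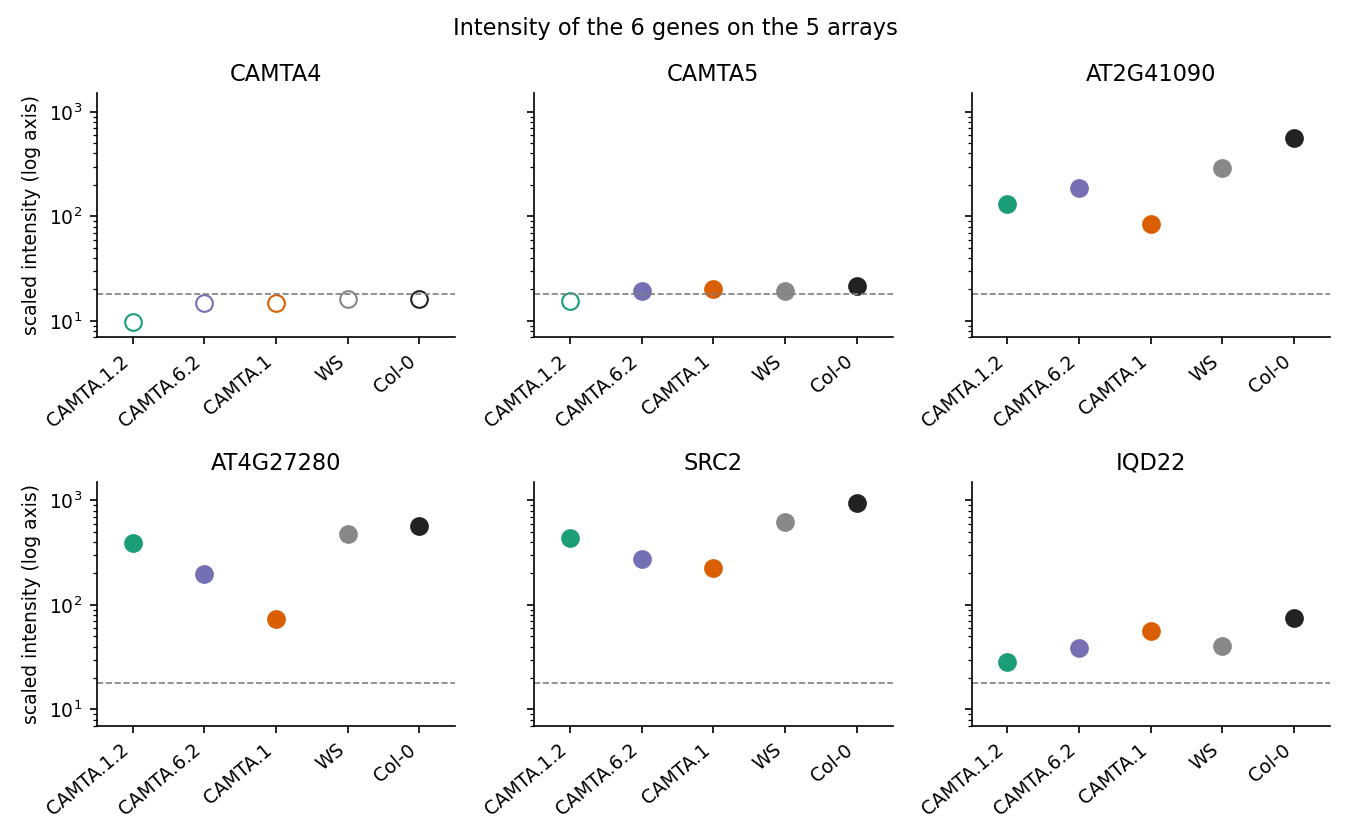
Scaled intensity (log axis) of each of the 6 genes on the 5 arrays, with 1 point per array, open where it lies under the floor of 18.1 (dashed line). CAMTA4 and CAMTA5 lie at or near the floor, and AT2G41090, AT4G27280 and SRC2 are highest on the Col-0 array and lowest on the CAMTA.1 array.

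AT2G41090, the calmodulin-like gene, had intensities of 132 on CAMTA.1.2, 188 on CAMTA.6.2, 84.5 on CAMTA.1, 288 on WS and 566 on Col-0. All 3 line arrays were below both arrays with no line named, and the lowest of those 2 was 1.53 times the highest line array. No neighbouring pair in the order of the 5 arrays was 2-fold apart, although the highest was 6.70 times the lowest. Set against its own accession, AT2G41090 was 4.28-fold lower on CAMTA.1.2 (log2 difference -2.10), 3.01-fold lower on CAMTA.6.2 (-1.59) and 3.41-fold lower on CAMTA.1 (-1.77). The first of these was rank 7 from the lowest of the 4636 probe sets above the floor on both arrays. Its probe set carries the suffix _s_at, which Affymetrix gave to sets that can match more than 1 transcript. The next protein-coding gene in the TAIR10.1 gene table is the calmodulin-like gene TCH3, and whether TCH3 transcripts add to this signal was not tested.

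AT4G27280, which encodes a small EF-hand protein, was at 390 on CAMTA.1.2, 197 on CAMTA.6.2, 72.9 on CAMTA.1, 478 on WS and 565 on Col-0. The WS and Col-0 arrays lay close together and CAMTA.1.2 was 1.22-fold below the WS array, whereas CAMTA.1 stood 2.71-fold below the next lowest array, the only neighbouring pair of any member that was 2-fold apart. Against WS, the CAMTA.1 array was 6.55-fold lower (log2 difference -2.71), rank 11 from the lowest of 4663 probe sets. Against Col-0, CAMTA.6.2 was 2.86-fold lower (-1.52), and CAMTA.1.2 was 1.45-fold lower (-0.53), which is under 2-fold. The ratio of the 3' to the 5' ubiquitin control probe set was 2.68 on CAMTA.1.2, 3.57 on CAMTA.6.2, 3.32 on CAMTA.1, 2.28 on WS and 2.64 on Col-0, highest on the 2 arrays where AT4G27280 was lowest. The GAPDH ratio did not follow that order, at 1.94, 1.78, 1.29, 1.38 and 1.64 in the same order of arrays. The part of RNA quality in these values was not tested.

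SRC2, named after a cold-regulated soybean gene, was at 435 on CAMTA.1.2, 276 on CAMTA.6.2, 223 on CAMTA.1, 617 on WS and 950 on Col-0. The 3 line arrays were again below both others, by a gap of 1.42-fold, and the 2 lowest were CAMTA.6.2 and CAMTA.1, where the ubiquitin ratio was highest. The GAPDH ratio was not highest there, at 1.78 and 1.29 against 1.94 on CAMTA.1.2. The part of RNA quality in the SRC2 values was not tested. SRC2 was 2.18-fold lower on CAMTA.1.2 (log2 difference -1.13) and 3.44-fold lower on CAMTA.6.2 (-1.78) than on Col-0, and 2.77-fold lower on CAMTA.1 than on WS (-1.47). The CAMTA.6.2 difference was the largest of the 6 genes in that comparison and was rank 69 from the lowest of 4600. Its probe set is also of the _s_at kind.

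IQD22, of a family of calmodulin-binding proteins linked to microtubules and cell shape, was at 28.2 on CAMTA.1.2, 38.8 on CAMTA.6.2, 56.5 on CAMTA.1, 40.4 on WS and 75.4 on Col-0. The line arrays overlapped the others, since CAMTA.1 lay above WS. IQD22 was 2.68-fold lower on CAMTA.1.2 (log2 difference -1.42) and 1.94-fold lower on CAMTA.6.2 (-0.96) than on Col-0, and 1.40-fold higher on CAMTA.1 than on WS (0.48).

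In each line comparison, 3 of the 6 genes were at least 2-fold lower and 0 were higher. These were AT2G41090, SRC2 and IQD22 for CAMTA.1.2 against Col-0, and AT2G41090, AT4G27280 and SRC2 for CAMTA.6.2 against Col-0 and for CAMTA.1 against WS. Among all probe sets above the floor on at least 1 array of the pair, 2.43% were 2-fold lower and 0.635% higher in the CAMTA.1.2 comparison, 6.47% lower and 5.38% higher in that of CAMTA.6.2, and 5.77% lower and 3.75% higher in that of CAMTA.1. Nothing is read from the members' counts against these shares, since the genes were picked on these same comparisons. The median log2 difference of the 6 genes was -0.83 for CAMTA.1.2, -1.24 for CAMTA.6.2 and -0.73 for CAMTA.1, against 0.03, 0.05 and 0.11 over all probe sets above the floor on both arrays. The choice of members fixes these medians too, and nothing is read from them. Both comparisons made within Col-0 use the same Col-0 array, so they are not separate observations.

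**Figure D2:**
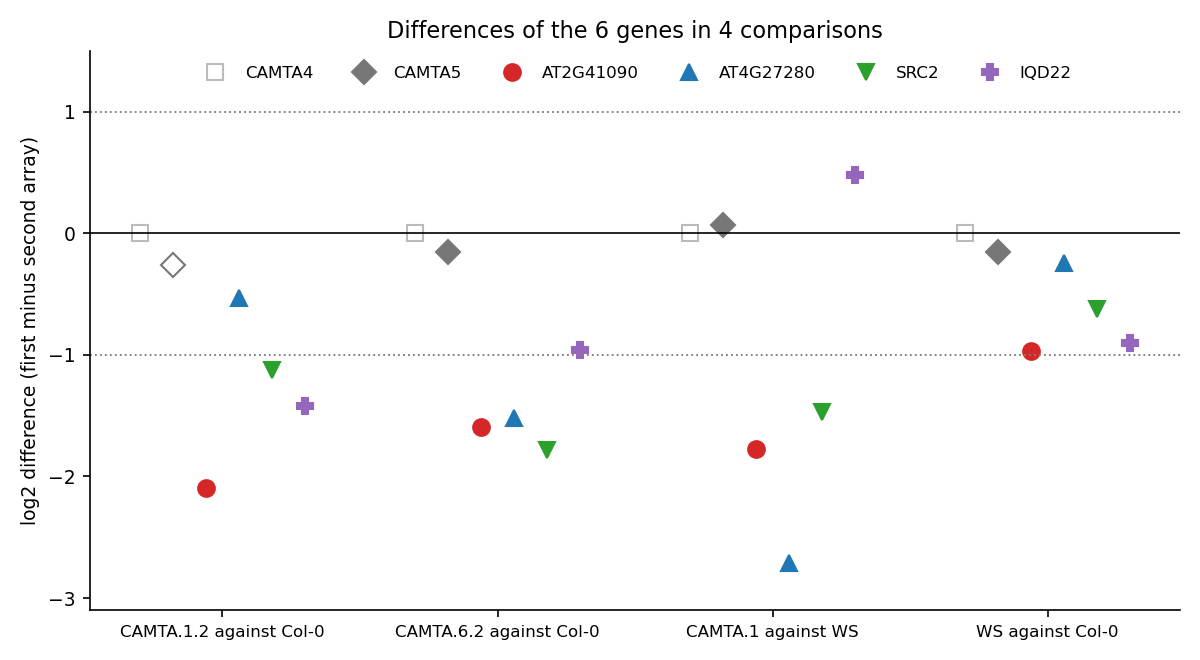
Log2 difference (first minus second array) of each gene in the 4 comparisons, with dotted lines at 2-fold and open symbols where the gene was at the floor on an array of the pair. AT2G41090 and SRC2 lie below the lower dotted line in all 3 line comparisons, at -2.10, -1.59 and -1.77 and at -1.13, -1.78 and -1.47, while no gene does so for WS against Col-0.

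WS was set against Col-0 to give the difference between accessions without a line. AT2G41090 was 1.96-fold lower on WS (log2 difference -0.97), IQD22 1.87-fold (-0.90), SRC2 1.54-fold (-0.62) and AT4G27280 1.18-fold (-0.24). Of the 6 genes, whose median was -0.43, 0 were 2-fold apart, against 3.99% lower and 2.48% higher among the probe sets above the floor on either array. AT2G41090 was just short of the threshold, and reached it at -1.02 when the floor was set at the 30th percentile.

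**Figure D3:**
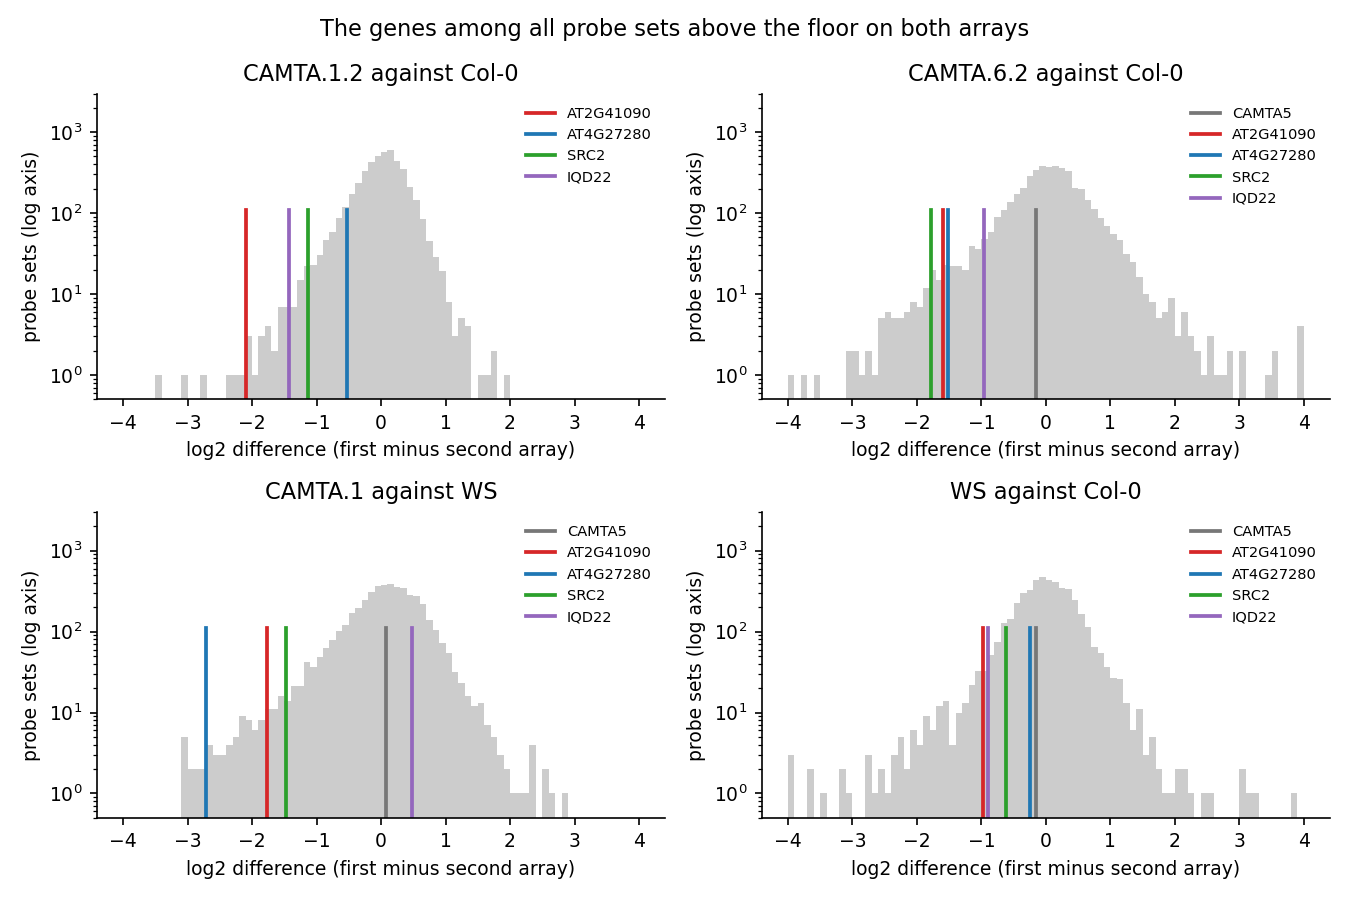
Histograms (log axis) of the log2 difference of every probe set above the floor on both arrays in the 4 comparisons, with differences beyond 4 drawn at 4, and with vertical lines at the genes measured on both. AT2G41090 at -2.10 for CAMTA.1.2 and AT4G27280 at -2.71 for CAMTA.1 lie in the thin lower tails.

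The 4 genes above the floor on every array were all highest on the Col-0 array, as were 12.5% of the 4247 probe sets above it on every array after scaling. For AT2G41090, AT4G27280 and SRC2 the 3 line arrays were below both WS and Col-0, as for 6.52% of those probe sets. These 4 genes were picked with their differences on these arrays known, so nothing is read from either count against its share. The line arrays were also separated from WS and Col-0 by the ubiquitin 3'/5' ratio, at 2.68, 3.57 and 3.32 on CAMTA.1.2, CAMTA.6.2 and CAMTA.1. It was 2.28 on WS and 2.64 on Col-0, the latter only narrowly below CAMTA.1.2. The summed green-tissue markers separated the same arrays too, and both measures were higher on the line arrays. The GAPDH ratio did not separate these arrays. Among the green markers LHB1B2 and PSAE-1 did so, while PRK and RCA did not. The part of the ubiquitin ratio and of the green markers in the members' pattern was not tested. The opposite arrangement, with the 3 line arrays above both, was seen for 13.9%. The order of arrays for SRC2 was, from the lowest, CAMTA.1, CAMTA.6.2, CAMTA.1.2, WS and Col-0. AT4G27280 had the same order, as did 0.777% of the probe sets. Nothing is read from this share, since the order was taken from a member on these same arrays. No neighbouring arrays were 2-fold apart for SRC2, and for AT4G27280 only CAMTA.1 and CAMTA.6.2 were. AT2G41090 differed from that order only in that CAMTA.1.2 and CAMTA.6.2 changed places, at 132 and 188, a gap of 1.42-fold.

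Because the Col-0 array was the highest for these genes, the Col-0 lines were also set beside the WS array, a comparison in which line and accession cannot be told apart. AT2G41090 was 2.18-fold lower on CAMTA.1.2 and 1.53-fold lower on CAMTA.6.2 than on WS. For AT4G27280 the values were 1.22-fold and 2.42-fold lower, and for SRC2 1.42-fold and 2.24-fold lower. IQD22 was 1.43-fold and 1.04-fold lower. The call for SRC2 on CAMTA.1.2, that for AT2G41090 on CAMTA.6.2 and that for IQD22 on CAMTA.1.2 were thus held only against the Col-0 array. Over all 10 pairs of arrays, AT2G41090 and AT4G27280 were each 2-fold apart in 6, SRC2 in 5 and IQD22 in 2. For comparison, the share 2-fold apart in either direction was taken among probe sets exceeding the floor at least once in the pair. It ran from 3.06% for CAMTA.1.2 and Col-0 to 14.3% for CAMTA.6.2 and WS, and was 6.83% for CAMTA.1.2 and WS. The 10 pairs reuse the same 5 arrays, so they are not separate observations.

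The pattern of each of these 4 genes was also set beside the 634 probe sets that named 1 other gene, spanned 2-fold or more and were above the floor on at least 3 arrays. Likeness was the root mean square difference of log2 intensities over the 5 arrays, after each gene was centred on its own mean, so that 0 is an identical pattern. It is a description with no test. Nearest to SRC2 was AT2G41410, at 0.11, with intensities of 535 on CAMTA.1.2, 303 on CAMTA.6.2, 276 on CAMTA.1, 741 on WS and 971 on Col-0. Its second probe set had 599, 289, 308, 575 and 751 in the same order, with CAMTA.1.2 above WS. AT2G04570 and AT2G28400 followed at 0.20 and 0.23. AT2G41090 lay at 0.42 from SRC2 and AT4G27280 at 0.51, with 42 and 82 of the 634 probe sets nearer to SRC2.

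AT4G27280 was nearest to AT2G44290, at 0.18, which had 296 on CAMTA.1.2, 130 on CAMTA.6.2, 63.8 on CAMTA.1, 294 on WS and 379 on Col-0. AT1G75280 came next at 0.32 and then Hsp70-2, a heat shock protein gene, at 0.35, on a probe set under the floor on CAMTA.1. The second Hsp70-2 probe set had 264 on CAMTA.1.2, 64.6 on CAMTA.6.2, 38.4 on CAMTA.1, 150 on WS and 195 on Col-0, so that CAMTA.1.2 was the highest array there, unlike for AT4G27280. AT2G41090 was nearest to TET8, a tetraspanin gene, at 0.33, with 339 on CAMTA.1.2, 387 on CAMTA.6.2, 272 on CAMTA.1, 584 on WS and 920 on Col-0. AT2G04570 at 0.39 and AT2G26190 at 0.46 followed, and SRC2 lay between them at 0.42. IQD22 was nearest to AT4G29700 at 0.20, to CSLC5, a cellulose synthase-like gene, at 0.22 and to AT4G15420 at 0.23, with CSLC5 above the floor on 3 arrays. Its distance was 0.76 from SRC2, 0.84 from AT2G41090 and 1.22 from AT4G27280, and 387 of the 634 probe sets were nearer to it than SRC2 was.

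**Figure D4:**
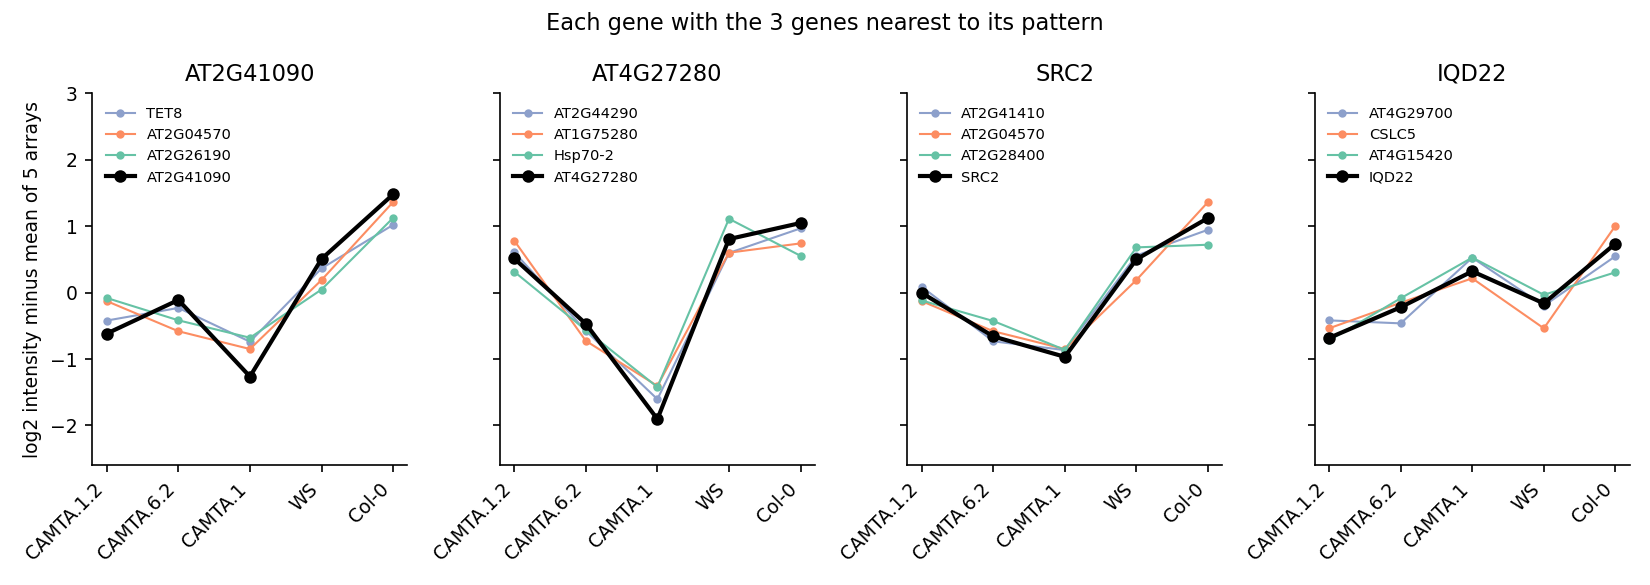
Log2 intensity minus the mean of the 5 arrays for AT2G41090, AT4G27280, SRC2 and IQD22 (black) and for the 3 genes nearest to each (colours), with values under the floor drawn at the floor. The first 3 genes are lowest on CAMTA.1 and highest on Col-0, while IQD22 is lowest on CAMTA.1.2.

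Other genes of calcium signalling came from a list of 215 loci that covers calmodulins, calcium sensors and their kinases, calmodulin-binding proteins, calcium pumps and channels, annexins, calreticulins and C2-domain proteins. Loci entered it by symbol or locus number, so a calcium-binding gene that carries no such symbol can be missing from it and from the counts below. Probe sets named 14 of them alone, and 7 of these were above the floor on at least 1 array. AT2G41410, the gene nearest to SRC2 in pattern, was not among the 14, so its values given above do not enter the counts. Whether it encodes a calcium-binding protein was not checked here. For CAMTA.1.2 against Col-0, 0 of the 14 were 2-fold apart. For CAMTA.6.2 against Col-0, 1 was lower and 0 higher, and for CAMTA.1 against WS, 1 was higher and 0 lower. For WS against Col-0, 0 were apart. The list's median was 0 in all 4 comparisons, as was that of all probe sets, because 7 or 8 of its genes were at the floor on both arrays.

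CML42, a calmodulin-like gene known from trichome branching, was at 59.8 on CAMTA.1.2, 90.0 on CAMTA.6.2, 100.0 on CAMTA.1, 44.1 on WS and 59.5 on Col-0. It was 2.27-fold higher on CAMTA.1 than on WS, the opposite direction to AT2G41090, and under 2-fold when 16 was added to each value in place of the floor. GLR2.7, a glutamate receptor-like channel gene, was under the floor on CAMTA.6.2, against 41.7 on Col-0, at least 2.30-fold lower, a call lost when the floor was set at the 50th percentile. CML41, a calmodulin-like gene of plasmodesmata, was at 20.4 on CAMTA.1 and 40.5 on WS, 1.98-fold lower. It was also at 13.4, under the floor, on CAMTA.6.2 against 29.2 on Col-0, at least 1.61-fold lower. GLR3.5 was above the floor only on WS, at 32.0, at least 1.77-fold higher than on CAMTA.1 or Col-0. CML30 was at 68.5 on CAMTA.6.2 and 41.8 on Col-0, 1.64-fold higher. The calreticulin gene CRT1b, whose product stores calcium in the endoplasmic reticulum, ranged from 122 to 184, and AT5G07340, entered in the list by its locus, from 88.0 to 107. The other IQD family genes in the list, IQD16, IQD27 and IQD29, were under the floor on all 5 arrays.

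**Figure D5:**
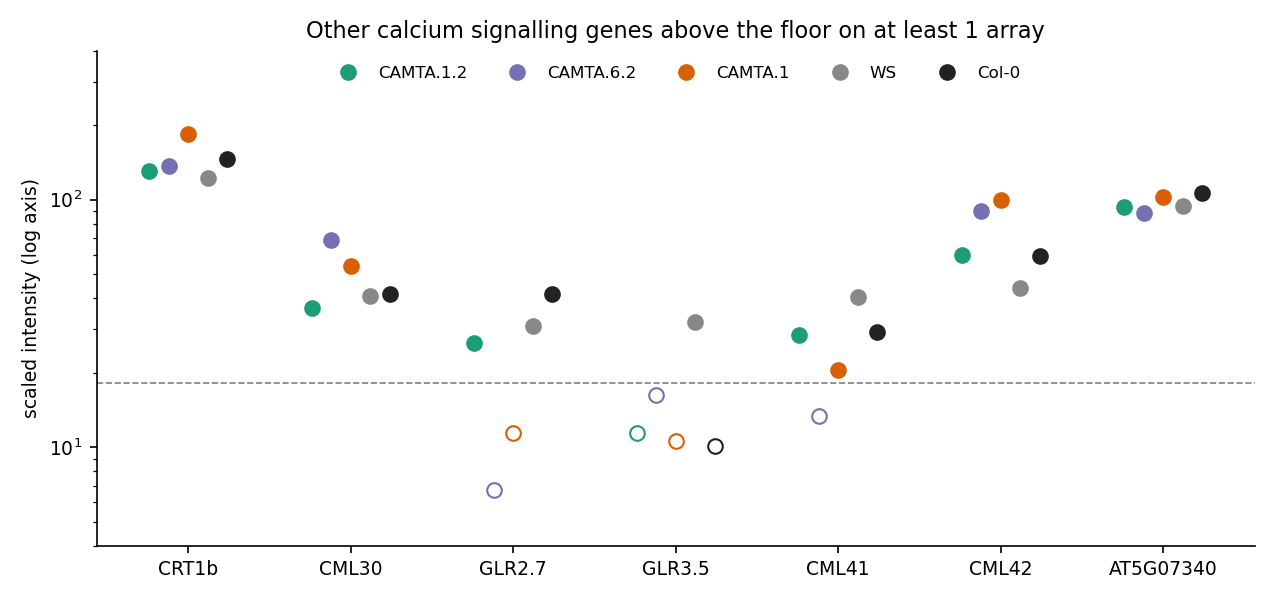
Scaled intensity (log axis) of the 7 other calcium signalling genes that were above the floor of 18.1 (dashed line) on at least 1 array, with 1 point per array, open where under the floor. CML42 is highest on CAMTA.1 at 100.0, against 44.1 on WS, and CRT1b (122 to 184) and AT5G07340 (88.0 to 107) vary by under 2-fold.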

How the data were processed

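Gene expression was measured in whole plants on 5 one-colour arrays, grouped by the accession and line in the characteristics. The deposited intensity values are linear, with 1 for every probe set of an array, and from the values the authors had brought them to a 2% trimmed mean of about 100 on each array. The probe summary method, not given in the sources used here, precedes these values. Detection calls were not used. After 50 control probe sets were left out, arrays were brought to a common median log2 intensity over the 4245 probe sets above the 40th percentile of all values (18.1) on every array before scaling, and lower values were set to that floor. The threshold for a difference was 2-fold. Fold values with 1 array at the floor are bounds. Names came from the platform annotation, updated to the TAIR10.1 gene table: 3794 probe sets name 1 gene, 70 several and 4383 none. Genes with more than 1 probe set were represented by the brightest on average, except in the search for like patterns, where each probe set was compared and the nearest named the gene. The text names every member, listed calcium genes 2-fold apart and the 3 genes nearest to each member's pattern. CML41, GLR3.5, CML30, CRT1b, AT5G07340 and the 3 IQD genes were added after their values were seen. The members and lists were chosen with earlier results of these data known. Scaling was tested on simulated data for CAMTA.1.2 against Col-0, with 200 of 8247 probe sets changed. Log2 differences were recovered within 0.023 when 100 were lowered and 100 raised, but were off by up to 0.056 when 120 were lowered and 80 raised. The simulated arrays were multiples of the same mean profile without noise, and only bright probe sets were changed. The errors therefore show the scaling offset alone. The real calls for this pair were more uneven, with 126 lower and 33 higher. No 2 arrays held identical values. Promoter and protein sequences were not used here, so the planned motif search was not run. Python 3.11.15, numpy 2.4.6, pandas 2.3.3, scipy 1.17.1 and matplotlib 3.10.9 were used.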

Additional observations from a re-analysis of the deposited data

Results flagged for a closer look

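IQD22 differed in opposite directions from the control of its own accession. Its log2 difference was -1.42 for CAMTA.1.2 and -0.96 for CAMTA.6.2 against Col-0, and 0.48 for CAMTA.1 against WS. Only the CAMTA.1.2 difference reached 2-fold at the main settings, so the higher value on CAMTA.1 was not called. The difference between these comparisons was not tested, and the lines carry different names, so accession and line cannot be told apart. The Col-0 array, the highest of the 5 for this gene at 75.4, enters both negative values. Against the WS array IQD22 was 1.43-fold lower on CAMTA.1.2 and 1.04-fold lower on CAMTA.6.2.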

How the results depend on the processing

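The alternatives were the values as deposited, quantile normalization, floors at the 30th and 50th percentiles, 16 added in place of the floor, and, for gene values, the mean over probe sets, which cannot differ for the 6 genes since each has 1 probe set. No called difference of a member changed direction or fell under 2-fold under any of them, and the log2 differences ranged from -2.11 to -1.97 for AT2G41090 on CAMTA.1.2 and from -2.84 to -2.47 for AT4G27280 on CAMTA.1. IQD22 on CAMTA.6.2 reached 2-fold as deposited (-1.01) and with quantile normalization (-1.002), and AT2G41090 for WS against Col-0 with the 30th percentile floor (-1.02), which made 1 member lower there. Scaling moved the median of measured probe sets for CAMTA.1 against WS to 0.11, against -0.01 as deposited. For that pair 39.4% of calls were higher, or 25.8% as deposited, and for WS against Col-0 38.3%, or 48.7% as deposited. Counts of all probe sets depended on the floor. For CAMTA.1.2, 33 were higher, or 64, 21 and 15 with the 30th and 50th percentile floors and the added 16, and 126 lower, or 193 with the 30th percentile floor. For CAMTA.1, 199 were higher, or 127 with the added 16 and 131 as deposited, and for WS 131, or 85 with the added 16. Of the listed calcium genes, 2 were lower on CAMTA.6.2 with the 30th percentile floor and 0 with the 50th. On CAMTA.1, 2 were lower with the 30th percentile floor, 1 as deposited, and 0 higher with the added 16. For WS, 1 was higher with the 30th percentile floor. The causes were not tested. No paired analysis was possible because each group has 1 array. Signal near the floor limits what can be said of CAMTA4 and CAMTA5.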
